A study of Mus musculus with 8 samples.

Results

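The total-cell-only regions of H4K12la are stretches of the mouse genome where all 4 peak lists from total brain cells hold a peak and none of the 4 peak lists from purified microglia does. They were found by merging the peaks of all 8 lists wherever peaks overlapped by 1 base or more, which gave 73400 merged regions, and 984 of these (1.34%) met the rule. The reverse class, with a peak in every microglia list and in no total cell list (microglia-only), held 3307 (4.51%), and 5288 (7.20%) had a peak in all 8 lists. The regions were chosen by the presence and absence of listed peaks, so their contrast with microglia is a description here and carries no test. H4K12la was profiled by CUT&Tag, in which an antibody guides a transposase to marked chromatin, and the fragments it releases are read by sequencing. The 8 libraries came from brains without cerebellum of wild-type (WT) mice and of 5XFAD mice, with 2 libraries per genotype for each preparation, total cells or microglia. The 5XFAD line is a transgenic model of Alzheimer disease in which mutated human transgenes are driven by a Thy1 promoter active in neurons. Total cells are the whole dissociated brain suspension after saline perfusion and myelin removal, with no step that takes out microglia described. Microglia were drawn from such suspensions with beads against CD11b, a surface protein that other myeloid cells also carry. The labels name no ages or sexes and do not say which libraries come from separate animals, so p-values measure only the spread between these libraries.

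Histone lactylation is an acyl mark that a cell can place on lysines of its histones from lactate, the end product of glycolysis, and like acetylation it is found at active promoters and enhancers. Lysine 12 of histone H4 can carry either group. A brain suspension mixes neurons, astrocytes, oligodendrocytes, vascular cells and microglia, so a peak of total cells can come from any of them, and more cells of a type and more mark per cell cannot be told apart in such bulk libraries.

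Of the 984 regions, 980 lay on chromosomes 1 to 19 and X, and 4 on unplaced or unlocalised sequence. Promoters of genes were among them: 121 regions (12.3%) overlapped a 300-base promoter window. Such a window runs from 250 bases before to 50 bases after a start site of a protein-coding gene in RefSeq. This share is not given for all merged regions. By the wider measure of a start site within 1 kb, the share was 15.1%, near the 14.7% of all merged regions. An overlap with a promoter window need not include the start site itself, and at Sptan1 it did not. The promoters of Map2, which encodes a structural protein of neuronal dendrites, Dnm3, a dynamin, Tfrc, the transferrin receptor, and Sptan1, a spectrin of the membrane skeleton, were covered in this way. The highest-ranked regions at a promoter lay at Ndst2, an enzyme of heparan sulfate synthesis, and at Sptssa, a small subunit of serine palmitoyltransferase. Sequences upstream of 5 of these start sites are shown, those of the best-ranked promoters and of the listed genes whose upstream bases lie mostly inside the region. Those of the listed genes Dclk2, Gabra2 and Dync1i1 lie mostly or wholly outside it and are not printed. They are from RefSeq (GRCm38.p6), 5′ to 3′ on the strand of the gene, and hold only bases outside the annotated span of every protein-coding gene. Capitals mark matches on either strand to any of 9 motifs searched. These were the GC box with the letters GGGCGG, the promoter box with the letters CCAAT, the core promoter box with the letters TATAAA, and the cAMP response element with the letters TGACGTCA. The others were an E-box with the letters CACGTG, another E-box with the letters CAGCTG, the ETS motif with the letters CCGGAAG, the core of PU.1 sites with the letters GAGGAA, and the NRF1 palindrome. No motif contains another, though neighbouring matches can share bases.
Ndst2 promoter, chr14:20734571-20734812, minus strand: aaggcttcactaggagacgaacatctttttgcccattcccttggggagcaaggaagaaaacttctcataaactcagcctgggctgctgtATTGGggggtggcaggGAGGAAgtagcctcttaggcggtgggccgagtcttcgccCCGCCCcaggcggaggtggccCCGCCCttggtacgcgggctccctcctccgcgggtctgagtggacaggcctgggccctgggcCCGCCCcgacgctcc
Sptssa promoter, chr12:54656573-54656822, minus strand: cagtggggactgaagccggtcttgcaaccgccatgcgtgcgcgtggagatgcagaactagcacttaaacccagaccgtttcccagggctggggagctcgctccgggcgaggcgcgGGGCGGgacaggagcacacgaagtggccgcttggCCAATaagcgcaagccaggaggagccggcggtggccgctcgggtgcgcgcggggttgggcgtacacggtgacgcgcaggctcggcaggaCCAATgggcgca
Map2 promoter, chr1:66175079-66175201, plus strand: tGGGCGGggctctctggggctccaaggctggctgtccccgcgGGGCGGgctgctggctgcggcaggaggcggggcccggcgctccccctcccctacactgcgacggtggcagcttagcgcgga
Sptan1 promoter, chr2:29965310-29965559, plus strand: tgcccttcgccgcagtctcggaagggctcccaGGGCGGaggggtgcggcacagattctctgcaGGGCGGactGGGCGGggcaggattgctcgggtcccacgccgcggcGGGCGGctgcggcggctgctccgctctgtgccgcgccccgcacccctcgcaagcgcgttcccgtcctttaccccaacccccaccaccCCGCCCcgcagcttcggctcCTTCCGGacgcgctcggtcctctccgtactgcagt
Tfrc promoter, chr16:32608646-32608895, plus strand: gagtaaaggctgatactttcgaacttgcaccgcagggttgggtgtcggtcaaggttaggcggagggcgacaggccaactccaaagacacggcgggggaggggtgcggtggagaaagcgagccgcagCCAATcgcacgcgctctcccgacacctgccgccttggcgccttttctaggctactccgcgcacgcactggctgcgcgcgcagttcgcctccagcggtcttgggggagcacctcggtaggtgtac
The Map2 stretch holds 2 GC boxes in 123 bases, and all of it lies inside the total-cell-only region. The Sptan1 stretch holds 5 GC boxes and 1 ETS match in 250 bases, of which 244 are inside the region. At Sptssa the matches are 1 GC box and 2 CCAAT boxes, and at Tfrc a lone CCAAT. The Ndst2 stretch holds 3 GC boxes, 1 CCAAT and 1 GAGGAA, and 133 of its 242 bases are inside the region, which also lies within 2 kb of Camk2g, the gene of a calmodulin-dependent kinase.

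Promoters covered by total-cell-only regions held more G and C than the table's promoters in general, and about as many CpG as those covered in all 8 libraries. The 130 promoter windows concerned (123 genes, some with overlapping windows) were 0.611% of the 21263 windows in the table. Their median GC content was 65.7%, against 56.3% over all windows, 55.5% over the 186 windows covered by microglia-only regions and 60.7% over the 3097 windows covered by regions of all 8 libraries. The median number of CpG was 22.5 per window, against 13 over all windows, 11 over microglia-only windows and 21 over windows of all 8 libraries. More than 60% GC was found in 89 of the 130 (68.5%), in 38.1% of all windows, in 28.0% of microglia-only windows and in 51.8% of windows of all 8 libraries. GC boxes occurred in 85 (65.4%), against 46.2% of all windows, 39.2% of the microglia-only windows and a similar 63.0% of windows of all 8 libraries. The TATAAA motif was present in 6 (4.62%), against 12.6% of all windows and 5.13% of windows of all 8 libraries. GAGGAA was in 34 (26.2%), close to the 27.4% of all windows, while 40.3% of microglia-only windows held it. ETS letters were in 11 (8.46%), against 11.6% of all windows and 23.2% of windows of all 8 libraries. The cAMP response element was found in 0 of the 130, which allows a share of up to 2.31%, and 2.23% of all windows held it. A match to such letters is a description of the window and no evidence of a bound factor, and the windows of a gene share sequence, so these shares carry no test.

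In position at genes, total-cell-only regions were close to merged regions as a whole. Gene ends, meaning the stretch from 2 kb outside to 2 kb inside an annotated start or end of a protein-coding gene, held 204 of the 980 regions on chromosomes (20.8%), the rest of gene bodies held 570 (58.2%), and 206 (21.0%) lay outside. Over all merged regions the shares were 23.7%, 55.9% and 20.4%, and over microglia-only regions 18.2%, 54.3% and 27.5%. Regions of all 8 libraries stood elsewhere, with 58.1% at gene ends. Distances to start sites could be measured for 944 regions on chromosomes that the promoter table covers. A start site lay within 1 kb of 143 of them (15.1%), near the 14.7% of all merged regions, against 7.55% of microglia-only regions and 2541 of 5078 regions of all 8 libraries. The median distance to a start site was 34960.5 bases. The table lists start sites for 17492 of 21887 protein-coding genes, which can lengthen such distances. Among regions without any microglia peak, the share within 1 kb of a start site was 5.81% for those of 1 total cell list, 8.46% for 2 lists, 10.8% for 3 and 15.1% for all 4.

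**Figure D1:**
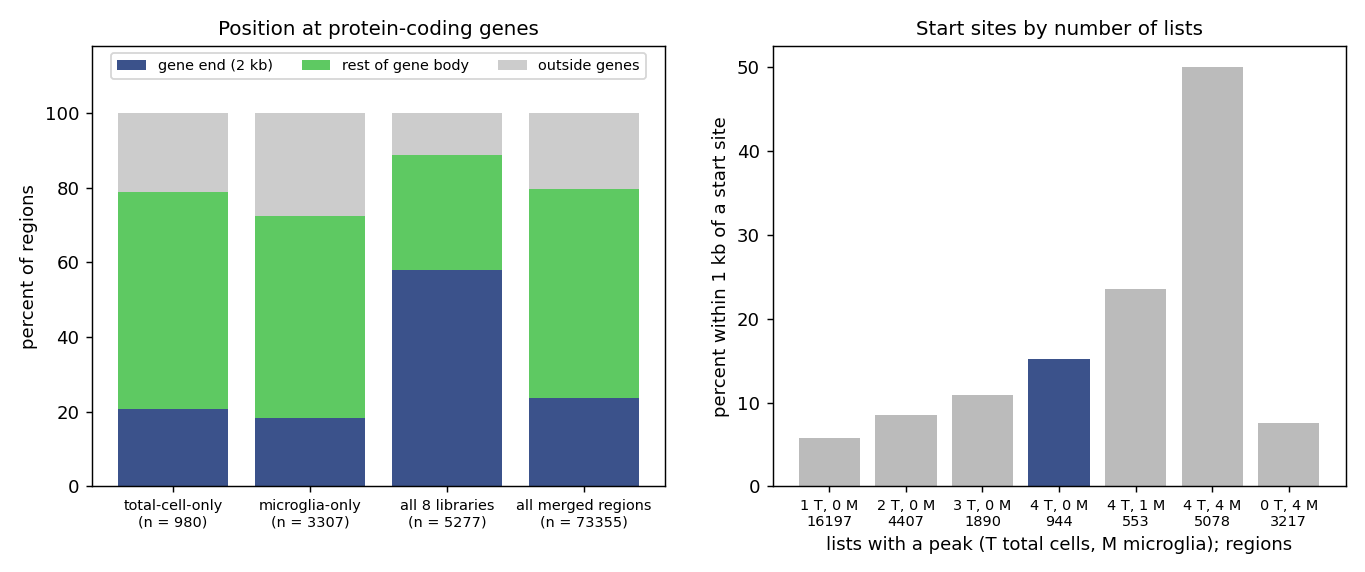
The left bars divide 4 classes of merged regions by position at protein-coding genes, in percent of regions, and the right bars give the percent of regions within 1 kb of a start site by the number of total cell (T) and microglia (M) lists with a peak. Total-cell-only regions (4 T, 0 M) reach 15.1%, between 10.8% for 3 T, 0 M and 23.5% for 4 T, 1 M.

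The genes that hold these regions were long. A total-cell-only region lay in the body or within 2 kb of 694 of 21887 protein-coding genes (3.17%), and the median length of these genes was 95210 bases, against 17169 for all protein-coding genes, 44635 for genes with a microglia-only region and 30534 for genes with a region of all 8 libraries. Genes over 100 kb made up 335 of the 694 (48.3%) and 11.1% of all genes. The share of genes with a total-cell-only region was 0.404% up to 10 kb, 1.46% from 10 to 30 kb, 4.59% from 30 to 100 kb, 12.6% from 100 to 300 kb and 18.0% above 300 kb. A longer gene offers more room for a region, so the density is given beside it. Per Mb of gene and its 2 kb surroundings there were 0.498, 0.667, 0.849, 0.870 and 0.458 total-cell-only regions in these 5 length classes. Density of microglia-only regions went from 4.28 per Mb in the shortest class to 0.744 in the longest, and that of regions of all 8 libraries from 12.4 to 3.19 in genes of 100 to 300 kb and lower still in longer ones. Thus the shortest and longest genes held total-cell-only regions at similar density, while both other classes of regions were densest in short genes. Regions in overlapping genes are counted for each gene.

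**Figure D2:**
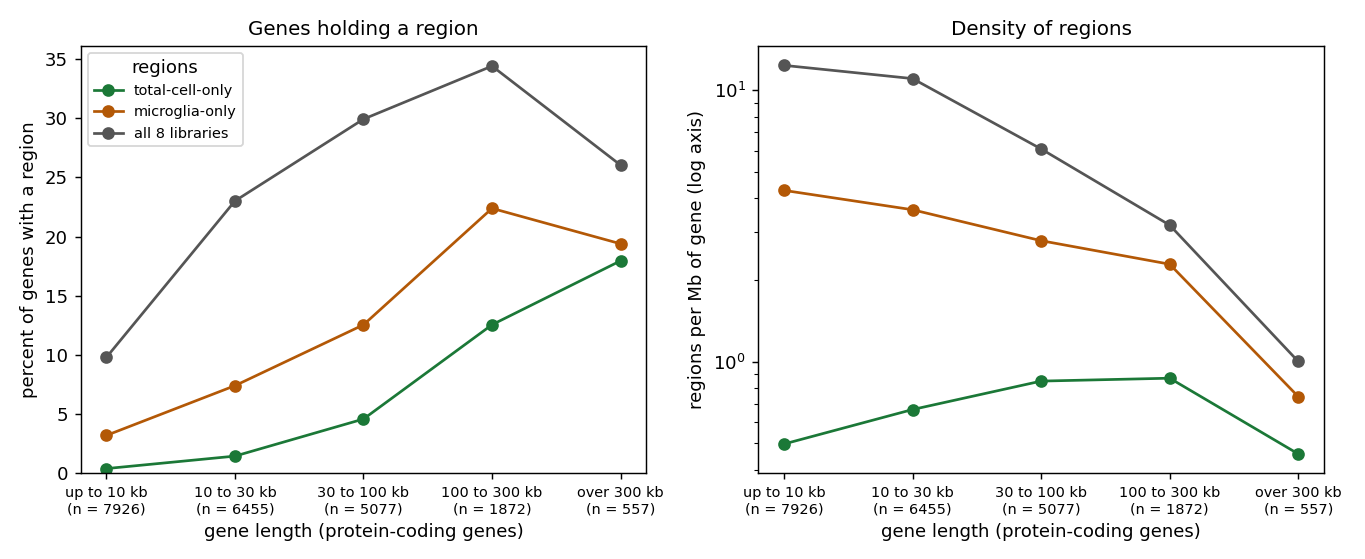
Left, the percent of protein-coding genes in each length class that hold a region in the gene or within 2 kb; right, regions per Mb on a log axis. The total-cell-only line climbs from 0.404% to 18.0% of genes on the left and stays between 0.458 and 0.870 per Mb on the right, where the other lines descend.

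Each peak list ranks its peaks by a score whose unit is not given, so a region is described by its score percentile, the rank of its highest peak among the peaks of the same list from 0 to 100. Ranks from lists of different length show no change between libraries. Total-cell-only regions spanned nearly the whole scale. Their mean percentile over the 4 total cell lists ran from 8.67 to 98.4 with a median of 57.1, and 24 regions averaged over 90. In 254 regions the percentile was over 50 in all 4 lists, and in 144 it was under 10 in some list. The median of the 984 regions was 66.4 and 62.6 in the WT lists 1 and 2, and 60.2 and 52.1 in the 5XFAD lists 1 and 2. Regions of all 8 libraries had medians of 81.6, 79.3, 88.2 and 82.1 in the same lists, higher in each of them. Percentiles of 1 region differed between lists by a median SD of 18.7, so the order of the regions is loose.

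The top of the ranking mixed gene bodies, promoters and intergenic sites. First was a 450-base region inside Nwd1, a gene of a NACHT and WD repeat protein (gene 319555, chromosome 8, 72698397 to 72698846), with percentiles of 99.8 and 99.5 in WT 1 and 2 and 96.7 and 97.9 in 5XFAD 1 and 2, mean 98.4 ± 1.4 (SD, n = 4). Second was a 313-base region on chromosome 9 (35305222 to 35305534) inside the non-coding gene Gm33838 and 29264 bases from Rpusd4, with 99.8, 99.6, 96.5 and 96.7 in the same order. A region inside Commd1, which takes part in copper handling (chromosome 11, 22956818 to 22957301), had 98.1, 99.1, 95.1 and 98.5. All 12 of these values are over 95, and in each of the 3 regions 5XFAD 1 was lowest. Rora, which encodes a nuclear receptor of cerebellar and cortical neurons and of other cells, followed with a region (chromosome 9, 69259435 to 69259867) at 99.7, 99.7, 93.6 and 96.4. The region over the Ndst2 start site beside Camk2g (chromosome 14, 20734113 to 20734703) had 98.8, 95.3, 95.6 and 91.7. At the Sptssa start site (chromosome 12, 54656450 to 54656914) the values were 93.4, 98.1, 98.5 and 89.3, so here a WT and a 5XFAD list were high together. Pcca, a subunit of the mitochondrial propionyl-CoA carboxylase, had its best-ranked region in the last part of the gene (chromosome 14, 122825303 to 122826103) at 90.4, 97.1, 89.1 and 97.1. A region in Pde4b, a phosphodiesterase that degrades cAMP (chromosome 4, 102511390 to 102512171), had 95.7 and 84.5 in the WT lists and 95.9 and 97.4 in the 5XFAD lists. Ntrk2, which encodes the BDNF receptor TrkB of neurons and astrocytes, closed the 12 with a region (chromosome 13, 58912384 to 58912902) at 97.8, 94.5, 96.0 and 84.4. Of the other 3, a region 162767 bases from Tmem161b in the non-coding gene Gm17750 averaged 95.5 ± 4.2, a region 29124 bases from Apol7a averaged 94.9 ± 6.2 and a region on unplaced sequence averaged 95.8 ± 2.7 (SD, n = 4). No list of artefact-prone sites was applied.

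**Figure D3:**
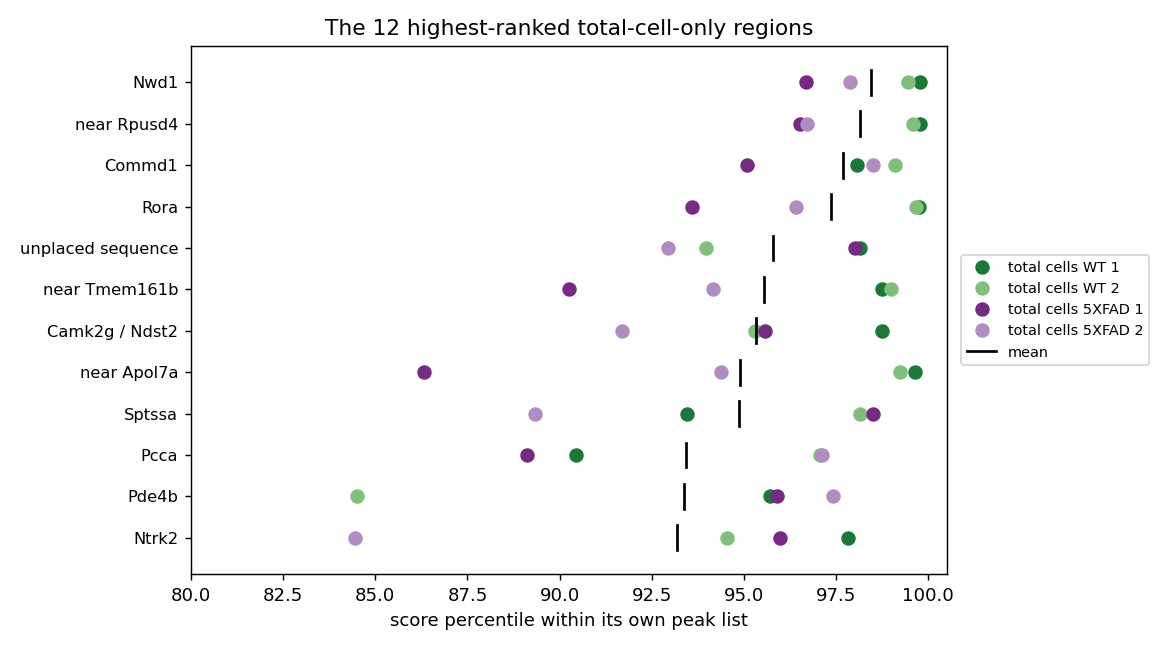
Score percentiles of the 12 highest-ranked total-cell-only regions, each dot a total cell library and each bar the mean of the 4, labelled by the gene that holds the region or the nearest gene. The Nwd1 dots lie between 96.7 and 99.8, while the Pde4b and Ntrk2 regions each have 1 library near 84.

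Several regions fell in the same gene. Of the 694 genes, 612 held 1 region, 63 held 2, 16 held 3 and 3 held 4. Rora (chromosome 9, 68653404 to 69388246), Syne1, which encodes the nuclear envelope protein nesprin-1 (chromosome 10, 5020192 to 5550692), and Pcca (chromosome 14, 122484365 to 122889944) held 4 each. The mean percentiles were 53.0, 63.9, 77.2 and 97.4 in Rora from its start to its end, and 77.4, 68.6, 38.8 and 63.9 across Syne1 in order of coordinate. In Pcca they were 48.8, 42.3, 50.1 and 93.4. Thus in Rora and Pcca the top-ranked region was the last in the direction of transcription, and neither gene had its regions at an annotated end. All 3 genes also held peaks of all 4 microglia lists elsewhere in the gene. Nlgn1, Pde4b and Zbtb20 had 3 regions each and the highest mean percentiles among the genes with 3, at 87.5, 75.7 and 64.8. Zbtb20, a zinc finger transcription factor gene, also held 8 regions of all 8 libraries, whereas Nlgn1 held none. Another total-cell-only region lay within 50 kb of 143 of the 984 (14.5%).

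Nlgn1 encodes neuroligin-1, an adhesion protein of the postsynaptic side of excitatory synapses, and it spans 911059 bases (gene 192167, chromosome 3, 25421808 to 26332866, minus strand). Its region at 25844183 to 25844973 had percentiles of 95.6 and 86.2 in WT 1 and 2 and 81.5 and 64.6 in 5XFAD 1 and 2. At 25903134 to 25903741 they were 98.6, 96.9, 85.7 and 82.5. The region at 26135007 to 26135587 had 94.5, 89.0, 91.2 and 84.1. Both WT lists ranked the first and the second region higher than both 5XFAD lists did, while at the last they overlapped. Medians over all 984 regions were likewise higher in WT (66.4 and 62.6) than in 5XFAD (60.2 and 52.1). Such ranks show no change between libraries. No microglia list held a peak anywhere in Nlgn1 or within 2 kb of it, and the nearest microglia peak was 700353, 759304 and 945628 bases from the 3 regions.

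Genes with a total-cell-only region usually held a microglia peak too. Of the 694 genes with a total-cell-only region, 556 (80.1%) had a microglia peak in some list in the gene or within 2 kb, against 59.1% of all protein-coding genes, which are shorter. All 4 microglia lists had a peak in 409 (58.9%), and 138 (19.9%) had none in any list, against 39.0% and 40.9% of all protein-coding genes. A microglia-only region lay in 115 of the 694 (16.6%) and a region of all 8 libraries in 244 (35.2%). Over all protein-coding genes these shares were 8.66% and 20.9%. They were 12.5% and 29.9% in genes from 30 to 100 kb, and 22.4% and 34.4% in genes from 100 to 300 kb. The shares in the 694 genes are thus near those of long genes. From the region itself, the nearest peak of any microglia list was a median of 12043 bases away. That peak was within 100 bases of 3 regions and farther than 100 kb from 130. It was within 5 kb of 278 of the 980 regions on chromosomes (28.4%). For regions of 3, 2 and 1 total cell lists without microglia peaks this share was 29.5%, 30.1% and 32.1%. All these classes exclude overlap with a microglia peak by definition, so their distances are partly fixed in advance. Regions of 3, 2 and 1 total cell lists without microglia peaks were at medians of 12088.5, 12160.5 and 11016 bases, against 12094.5 for the total-cell-only regions on chromosomes. Regions at promoters had a median of 11838 and those outside genes 21832.5.

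Within microglia, the question was whether peaks near total-cell-only regions were more frequent in 5XFAD mice. A peak lay within 5 kb of 14.1% and 19.8% of the 980 regions in WT 1 and 2, and of 17.7% and 24.2% in 5XFAD 1 and 2. The groups overlapped, with means of 16.9 ± 4.0 in WT and 20.9 ± 4.6 in 5XFAD (SD, n = 2 each). The difference of 3.98 percentage points had an exact two-sided permutation p of 0.667 over 6 arrangements, where the smallest possible is 0.333, so the design cannot reach 0.05. The order of the 4 libraries was that of their list lengths, 22300, 29947, 33500 and 41783 peaks, and with equal numbers of peaks the difference was 0.391 (exact permutation p = 1.0).

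**Figure D4:**
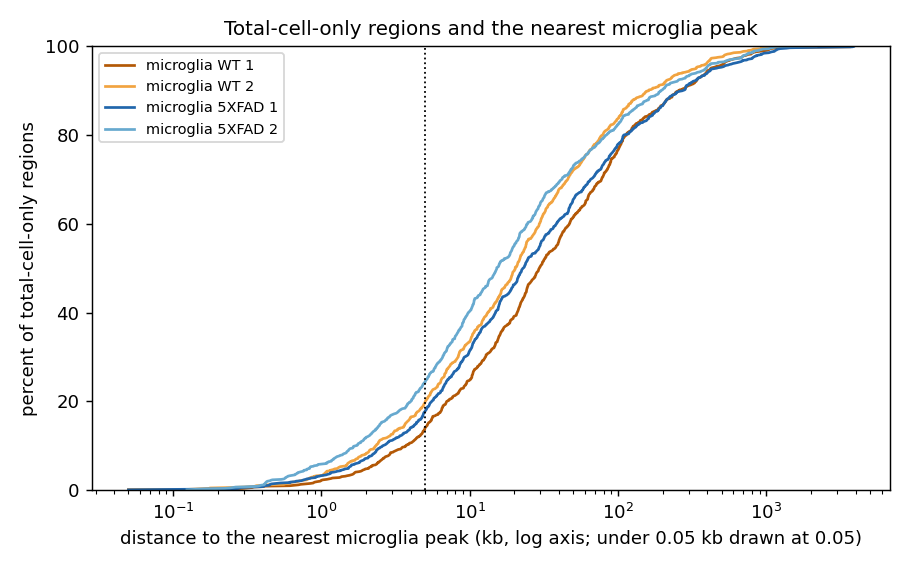
Cumulative percent of the 980 total-cell-only regions by distance in kb (log axis) to the nearest peak of each microglia library, with a dotted line at 5 kb. At that line the curves stand at 14.1% to 24.2%, in the order of list length.

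Gene lists were used to describe which genes of chosen functions and cell types held a region. A total-cell-only region in the gene or within 2 kb was found for 9 of 30 CaM kinase, neuronal cytoskeleton and dynamin genes (30%), the highest share of 15 lists, against 3.17% of all protein-coding genes and 12.6% of genes from 100 to 300 kb. The median gene of this list is 99705.5 bases long. Camk2g was counted through the region over the Ndst2 start site, which lies outside Camk2g but within 2 kb of it. The list joins calmodulin-dependent kinases, proteins of the cytoskeleton and dynamins. Several of its genes were known from earlier results of these data when the list was written, so the count is a description. Among peaks that scored 50 or higher, 4 of the 30 held such a region, against 1.53% of all genes. Among them Dnm3 (gene 103967, chromosome 1) carried its region at a start site, 162477746 to 162478285, with percentiles of 88.4 and 86.7 in WT and 94.0 and 86.7 in 5XFAD. The Map2 region (gene 17756, chromosome 1, 66174889 to 66175656) had 94.0, 79.8, 96.5 and 80.6, high in both libraries numbered 1 and lower in both numbered 2. Dclk2, a doublecortin-like kinase of microtubules, had a region over its start site (chromosome 3, 86920337 to 86920975) with 61.6 and 63.5 in WT and 87.1 and 81.7 in 5XFAD. The Sptan1 promoter region (chromosome 2, 29965277 to 29965553) was the narrowest named, 277 bases, with 81.0, 28.0, 43.0 and 66.8. A microglia-only region was present in 5 of the 30 genes and a region of all 8 libraries in 8, against 8.66% and 20.9% of all protein-coding genes. In genes from 30 to 100 kb these shares were 12.5% and 29.9%, and from 100 to 300 kb 22.4% and 34.4%.

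Genes of synaptic contact and signalling held total-cell-only regions in smaller shares. Of 40 neuronal adhesion and axon guidance genes, with a median length of 663451 bases, 5 (12.5%) held a total-cell-only region and 0 held a microglia-only region or a region of all 8 libraries. Besides Nlgn1 they were Negr1, a GPI-anchored adhesion gene with percentiles of 92.7, 84.1, 84.3 and 76.7, Nrxn2, a presynaptic neurexin with 84.3, 53.3, 10.3 and 52.1, and Tenm3 and Sema6d with means of 46.0 ± 12 and 38.2 ± 23 (SD, n = 4). The share in genes above 300 kb was 18.0%, higher than that of the list. Of such genes, 19.4% held a microglia-only region and 26.0% a region of all 8 libraries. Without total cells 5XFAD 2, 8 of the 40 held a total-cell-only region, against 5.76% of all genes. Among peaks scoring 50 or higher the count was 2 of 40. Of 37 glutamate and GABA receptor genes 3 (8.11%) held a region, against 3.17% of all protein-coding genes. The median gene of this list is 238285 bases long, and the share in genes from 100 to 300 kb was 12.6%. Without total cells 5XFAD 1 the count was 5 of 37, against 3.97% of all genes. Gabrb1 and Gabra2 encode subunits of the GABA-A receptor, with means of 74.3 ± 15 and 40.7 ± 28, and Grid1, a delta-type glutamate receptor, had 33.8 ± 17 (SD, n = 4). The Gabra2 region begins 155 bases outside the gene at its start, and no microglia list had a peak in Gabra2 or Grid1. Of 30 voltage-gated channel genes, with a median length of 290190 bases, 2 (6.67%) held a region, also below that 12.6%. The 2 were the sodium channel gene Scn8a with 89.3, 89.8, 85.3 and 64.6, and the calcium channel subunit gene Cacnb4 with 49.9, 50.7, 76.0 and 60.3. Of 30 synaptic vesicle and release genes, with a median length of 88179 bases, 2 (6.67%) held a region. The share in genes from 30 to 100 kb was 4.59%. Among them Rims2, which encodes a scaffold of the presynaptic active zone, had neighbouring regions with means of 51.2 ± 15 and 57.0 ± 8.8 (SD, n = 4). Unlike the adhesion list, these 3 lists did hold microglia-only regions. They lay in 1 of the 37 receptor genes, 4 of the 30 channel genes and 4 of the 30 vesicle and release genes. Cacnb4 held both kinds of region. Over all protein-coding genes the microglia-only share was 8.66%.

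Cell type markers were few, and with 3.17% of all protein-coding genes holding a region, counts of 0 or 1 in lists of 10 to 22 genes are near the background. Map2 was the lone neuron marker of 20 with a total-cell-only region, and 13 of the 20 had no microglia peak either. Aldh1l1, a folate enzyme gene that marks astrocytes, was the lone astrocyte marker of 15, with percentiles of 66.4 and 66.1 in WT and 72.6 and 12.5 in 5XFAD, and a microglia peak lay 450 bases from its region. Markers of oligodendrocytes (16), vascular cells (15), ependymal and choroid plexus cells (10), microglia (22) and other leukocytes (15) had 0 regions each, as had 15 genes of other tissues. Of the 22 microglia markers 14 held a microglia-only region, 3 held a region of all 8 libraries and all 22 had a microglia peak. The label of the purified preparation thus met its markers. Some markers of other cells also held a microglia-only region. They were 2 of 20 neuron, 2 of 15 vascular, 1 of 15 astrocyte, 1 of 16 oligodendrocyte and 1 of 15 other leukocyte markers. Ependymal and choroid plexus markers had 0 of 10, and 8.66% of all protein-coding genes held such a region. These lists are too short to tie the total-cell-only regions to a cell type. Glycolysis and lactate genes, which make the substrate of the mark, had 1 of 26, the phosphofructokinase gene Pfkp with 66.4, 32.6, 33.8 and 81.1, and 5 with a microglia-only region. Ubiquitous genes had 1 of 20, Tfrc, whose start-site region (chromosome 16, 32608697 to 32609300) had 88.4, 72.3, 78.1 and 71.0, and no microglia list held a peak in Tfrc.

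**Figure D5:**
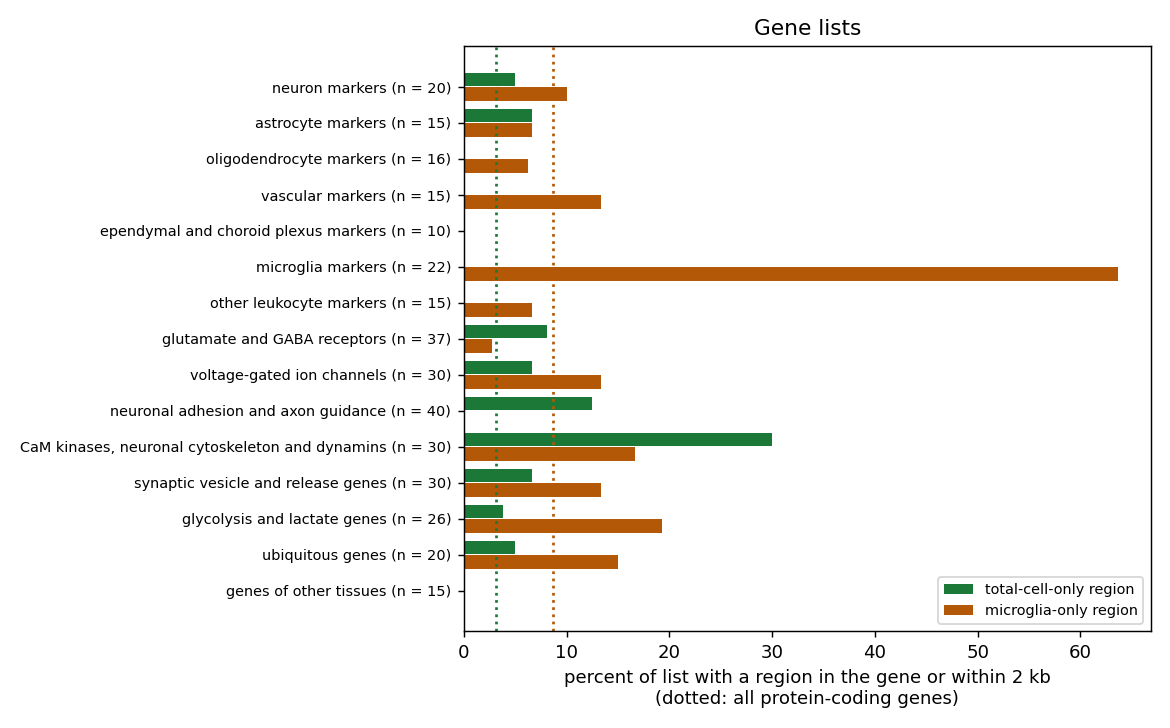
Percent of each gene list with a total-cell-only region (green) or a microglia-only region (orange) in the gene or within 2 kb, with dotted lines for all protein-coding genes at 3.17% and 8.66%. The green bar is highest at 30% for CaM kinase, cytoskeleton and dynamin genes, and the orange bar is highest for the 22 microglia markers, where there is no green bar.

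The median width of the regions was near that of all merged regions, which mix classes of different width. Among regions without a microglia peak it rose with the number of total cell lists. It was 239 bases for 1 list, 363 for 2, 462 for 3 and 556.5 for all 4. Regions of 4 total cell lists and 1 microglia list had 679. The width of the total-cell-only regions ran from 218 to 1975 bases with quartiles of 435 and 715. Their median of 556.5 stood against 550 for all merged regions, 1093 for microglia-only regions and 1353 for regions of all 8 libraries. In 934 of the 984, at least 1 base was covered by all 4 total cell lists, with a median of 197 shared bases over the 984, and 50 were held together by peaks that overlapped in turn. The widest, 1975 bases, lay 968 bases beyond Apod, the apolipoprotein D gene of glia (chromosome 16, 31315777 to 31317751), and had percentiles of 66.4, 81.3, 78.7 and 78.5. The next widest were in Cdrt4 (1652 bases) and at Fam83f (1582), with means of 55.3 ± 39 and 44.9 ± 24, followed by a region 3309 bases from Psmd1 (1494) and a region in the non-coding gene F630040K05Rik (1469). The peaks inside the regions had median widths of 370 and 331 bases in WT 1 and 2 and of 391 and 304 in 5XFAD 1 and 2. The other peaks of the same lists had 316, 285, 365 and 313, so that peaks in the regions were wider in 3 libraries and narrower in 5XFAD 2. The rule works by overlap of peaks, so their width bears on membership. The contrast with other peaks is therefore a description, and the genotype comparison of widths is limited to peaks selected in this way. Mean median widths were 350 ± 28 in WT and 348 ± 62 in 5XFAD (SD, n = 2 each), a difference of -3 bases with an exact permutation p of 1.0 (smallest possible 0.333). Width follows the preparation too, since the median over all peaks was 287 to 366 bases in total cell lists and 580 to 735 in microglia lists, and its part in the rule's outcome was not tested.

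Of the 980 regions on chromosomes, 206 lay outside protein-coding genes and their ends, and 57 of these overlapped an annotated non-coding gene or pseudogene. Farther than 50 kb from any protein-coding gene were 75 regions. The best-ranked of these were the Gm17750 region on chromosome 13, a region on chromosome 4 (56113617 to 56114197) 581141 bases from Klf4 with percentiles of 94.3, 98.5, 90.5 and 84.1, and another on chromosome 4 (3083197 to 3083618) with 79.4, 92.4, 88.9 and 82.9. The nearest microglia peak was 614 bases from the first, 108211 from the second and 398760 from the last, so isolation from genes did not go with isolation from microglia peaks in all 3.

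Just outside the rule, 583 regions held a peak in all 4 total cell lists and in 1 microglia list, and 1986 held a peak in 3 total cell lists and in no microglia list. In the former the lone microglia peak had a median percentile of 24.4 in its own list, and the mean percentile in total cells had a median of 62.9, against 57.1 for the total-cell-only regions. The lone peak came from 5XFAD 2 in 260 and from WT 2 in 246, the longest microglia lists, and from WT 1 in 39 and 5XFAD 1 in 38. In the latter the median was 45.8, and the absent list was total cells 5XFAD 2 in 985 of 1986. The top-ranked of the former were a region on chromosome 2 (98662315 to 98662813) at 99.9 with a microglia percentile of 90.9 in 5XFAD 1, a region in Sfi1 at 99.4 with 51.3 in 5XFAD 1, and a region on unplaced sequence at 99.2. The top-ranked of the latter lay in Mast4 (98.4), on chromosome Y (97.7) and in Rasal2 (95.4), all absent from 5XFAD 2. At the lower edge inside the rule, the region with the lowest mean lay in Jakmip1, with 18.2, 7.12, 1.95 and 7.46.

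The total cell lists held 22543 to 32967 peaks and the regions took 3.02% to 4.46% of them, while microglia lists held 22300 to 41783 peaks. Depth is unknown because the lists carry no read counts, and an absent peak says only that none was listed at a score of 20 or more. One total cell list weighed most on the number of regions: without total cells 5XFAD 2 it was 1967, and 1261 genes held a region. Leaving out any of the other 7 libraries moved neither number by over 1.5 times.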

How the data were processed

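H4K12la CUT&Tag peaks were deposited as 1 list per library, 8 lists in all, with groups and replicate numbers taken from the sample titles. A line holds an interval and a whole-number score from the authors. The peak caller, its control and the unit of the score were not stated in the labels or files. The lowest deposited score was 20 in every list. The build was GRCm38 (mm10), and the tools named were fastp 0.19.6, deepTools and Bowtie2, per the submitters' processing notes. Starts were taken as counted from 0 and are printed counted from 1.

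Lists were merged and overlapped with Python 3.11.15, numpy 2.4.6 and pandas 2.3.3, tested on simulated data. Gene spans, start sites and promoter sequences came from RefSeq tables of GRCm38.p6 and no exon, intron or UTR annotation was used. Genotypes were compared with exact two-sided permutation tests over 2 libraries against 2, with a threshold of 0.05; regions are not replicates, so classes of regions carry no test. The regions and the 15 gene lists (334 distinct genes, all matched to a protein-coding gene) were chosen with earlier results of these data known. Alternatives changed the score minimum, the number of peaks per list, the merging, the peak width, the windows and the libraries used. Named regions are the 12 of highest mean percentile, those of the 6 genes with most regions, up to 5 genes per list, the 5 widest, the 3 best-ranked farther than 50 kb from genes, and the 3 best-ranked on each side just outside the rule; Jakmip1 and some promoters were chosen after their values were seen, and 1 listed gene is not reported here. At most 193 exact intervals were shared by a pair of lists, so all 8 libraries were kept as separate samples.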

Additional observations from a re-analysis of the deposited data

Results flagged for a closer look

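Among 66 sets of 4 library values checked, 2 had a library far from the other 3, and chance alone flags about 1 in 20 such sets. In the Pde4b region on chromosome 4 (102511390 to 102512171), total cells WT 2 stood at a score percentile of 84.5 while the other 3 libraries lay between 95.7 and 97.4, a gap of 0.867 of the whole range. In the Aldh1l1 region, total cells 5XFAD 2 stood at 12.5 while the others lay between 66.1 and 72.6, a gap of 0.892 of the range.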

How the results depend on the processing

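The number of total-cell-only regions was 426 and the number of genes holding a region 334 with a score of at least 50. Leaving out a library in turn gave 1022 to 1967 regions and 713 to 1261 genes, the highest without total cells 5XFAD 2. At gene ends the share was 23.8% with a score of at least 50, 33.7% with the higher-scoring 50% of each list, 23.9% with equal numbers of peaks (22300 per list), 30.4% with peaks shrunk to their central 200 bases, 17.8% and 27.6% with windows of 1 and 5 kb, and 17.5% to 23.4% with a library left out. The rest of gene bodies held 49.6% with the higher-scoring 50% and 50.8% with shrunk peaks; outside genes lay 16.7% with the higher-scoring 50% and 18.4% with a score of at least 50. Median region width was 614 bases with the higher-scoring 50%, 316 with shrunk peaks, and 476 to 568 with a library left out. The width difference between 5XFAD and WT total cells turned positive, at 10.8 bases with the higher-scoring 50%, 8.25 with equal numbers and 10.2 with shrunk peaks, and ran from -51.5 to 23.5 with a library left out; the cause was not tested. The difference in regions near a microglia peak stayed positive, from 0.391 with equal numbers to 7.30 without microglia WT 2. Titles share replicate numbers but do not say that a number marks a shared animal or day. With genotypes exchanged within replicate numbers as a replicate block, the width difference of -3 had an exact permutation p of 1.0 and the difference near microglia peaks of 3.98 one of 0.5, the smallest possible. Of 56 named regions, 30 still met the rule with a score of at least 50, 29 with the higher-scoring 50% and 49 with equal numbers of peaks. The 9 CaM kinase, cytoskeleton and dynamin genes were 4 to 11 over these settings, the 5 adhesion and guidance genes 2 to 8, and the 3 receptor genes 1 to 5. Depth is unknown, which limits any statement on absence.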

Other observations

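Promoters outside the gene lists were covered too. They include Tpst2, a tyrosylprotein sulfotransferase gene (mean percentile 90.6), Irak2, a kinase of interleukin-1 and Toll-like receptor signalling (89.4), Psap, which encodes the saposin precursor of lysosomes (72.4), Glrb, the beta subunit of the glycine receptor (70.6), and Nrf1, a regulator of nuclear genes for mitochondria (69.2). These genes were chosen after their values were seen. Among the 138 genes with a total-cell-only region and no microglia peak in any list, Cdh20, a cadherin gene, held 3 regions, Mapk10, a JNK kinase gene of neurons, held 2, and Ntrk3, which encodes the neurotrophin receptor TrkC, held 1 at a mean percentile of 91.8.

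Total-cell-only regions were sparse on chromosome X, with 5 regions, or 0.415% of the 1205 merged regions there, against 0.932% (chromosome 11) to 1.76% (chromosome 3) on the autosomes. X held 0.510% of the total-cell-only regions on chromosomes, against 1.64% of all merged regions and 2.66% of microglia-only regions, which numbered 88 there. The low share was not particular to total-cell-only regions. It was 0.656%, 0.828% and 0.782% for regions of 3, 2 and 1 total cell lists without microglia peaks. For regions of 4 total cell lists and 1 microglia list it was 0.344%.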
